A study of Mus musculus with 8 samples.

Results

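The genes described here encode enzymes that activate and oxidize fatty acids, together with the peroxins that build the peroxisome. They were chosen by name, from the families Acad, Acaa, Acot, Acsl, Acsm, Hadh, Ech, Eci, Etfa, Etfb, Etfd, Decr and Cpt, the genes Crat and Crot, and the Pex genes, with Acot3 and Cpt1a left out. Of 18193 genes that an array probe set names alone, 68 matched. Each gene was represented by the probe set of highest mean over the 8 arrays. By the known location of their products, 30 of the 68 were mitochondrial, 22 were peroxisomal (13 peroxins and 9 enzymes), 4 (Acad11, Crat, Ech1 and Eci2) belonged to both organelles and 12 to other places. Cptp and Pex5l match the families only by spelling and act outside the pathway.

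A fatty acid is first joined to coenzyme A by an acyl-CoA synthetase. Long chains then enter mitochondria as carnitine esters, and each turn of the β-oxidation spiral removes an acetyl unit by dehydrogenation, hydration, a second dehydrogenation and thiolysis. Peroxisomes shorten very long and branched chains by a parallel set of enzymes and pass the shorter products on through carnitine acyltransferases and thioesterases. In the rodent liver, genes on both sides of this division are targets of the nuclear receptor PPARα, which is active in fasting.

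Liver RNA came from male KK-Ay mice, a strain that becomes obese and diabetic, at 14 weeks of age. The PD mice received persimmon peel (PP) extract, mixed at 1 g per kg into AIN-93G diet, for 8 weeks, and the CD mice received the AIN-93G diet alone. Food was withdrawn for 3 h before sampling, and 4 PD and 4 CD livers with plasma total ketone bodies near their group's average were put on Affymetrix mouse arrays, 1 liver to an array. All values are log2 expression indices, differences are PD minus CD on the log2 scale, and mice are listed as replicates 1 to 4.

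The arrays were alike as a whole. Their medians lay between 7.09 and 7.16 and their pairwise correlations between 0.991 and 0.996. The summed level of 5 hepatocyte markers, Alb, Apoa1, Ttr, Serpina1c and Cps1, was 16.64 to 16.70 in PD and 16.61 to 16.69 in CD mice. In whole liver, fewer cells of a type and less RNA per cell cannot be told apart. Among 11 lists of cell type markers, PD replicate 2 lay farthest outside the range of the other 7 mice in the erythroid list, of which 2 of 3 markers were measured, at 10.97 against 11.46 to 11.65, and by little in those of hepatocytes, endothelial cells and pancreas acinar cells. In the erythroid list, Alas2 was lowest in PD replicate 2, at 10.86, whereas Hba-a1 read 7.20 there, inside the range of the other mice. The part of the cells of these lists in the results below was not tested. Of all these markers the rank product, described below, called 1, Col3a1 of the stellate cell and fibroblast list, higher in PD mice. The same test called 0.269% of all genes higher. Elsewhere in that list, Col1a1 differed by −0.02, Rgs5 by −0.004, Dcn by 0.05 and Lum by 0.17, and none of these was called. The summed level of the list was 11.80 to 11.93 in PD and 11.61 to 12.01 in CD mice. For PD replicate 2, the log2 ratios of 3′ to 5′ probe sets, a measure of RNA quality, were 1.17 for Actb and 0.15 for Gapdh. Both lay inside the range of the other mice.

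None of the 68 genes passed a test between the diets. The rank product, which ranks the difference of every PD and CD pair of arrays, called 0 members higher and 0 lower in PD mice at an FDR under 0.1, while it called 0.269% of all genes higher and 0.357% lower. The lowest FDR was 0.143 for a higher level (Acot4) and 0.211 for a lower one (Crot). With limma, 0 members and 0% of all genes reached an adjusted p under 0.1, and the lowest adjusted p of a member was 0.998. In the probe sets used, 2 members had an unadjusted limma p under 0.05, Acsl4 and Echdc1, both higher in PD mice. The shares over all genes were 1.98% higher and 2.26% lower. In all 68 members the PD and CD mice overlapped. Over all genes, every PD mouse was above every CD mouse in 1.12% and below in 1.03%. With shares this small, 0 of 68 members, here and in the rank product, is close to the share of all genes. Differences ran between −0.29 (Crot) and 0.26 (Acot4). A difference that misses these thresholds may still exist, and the standard errors beside the values below give the precision that 4 mice against 4 allowed.

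**Figure D1:**
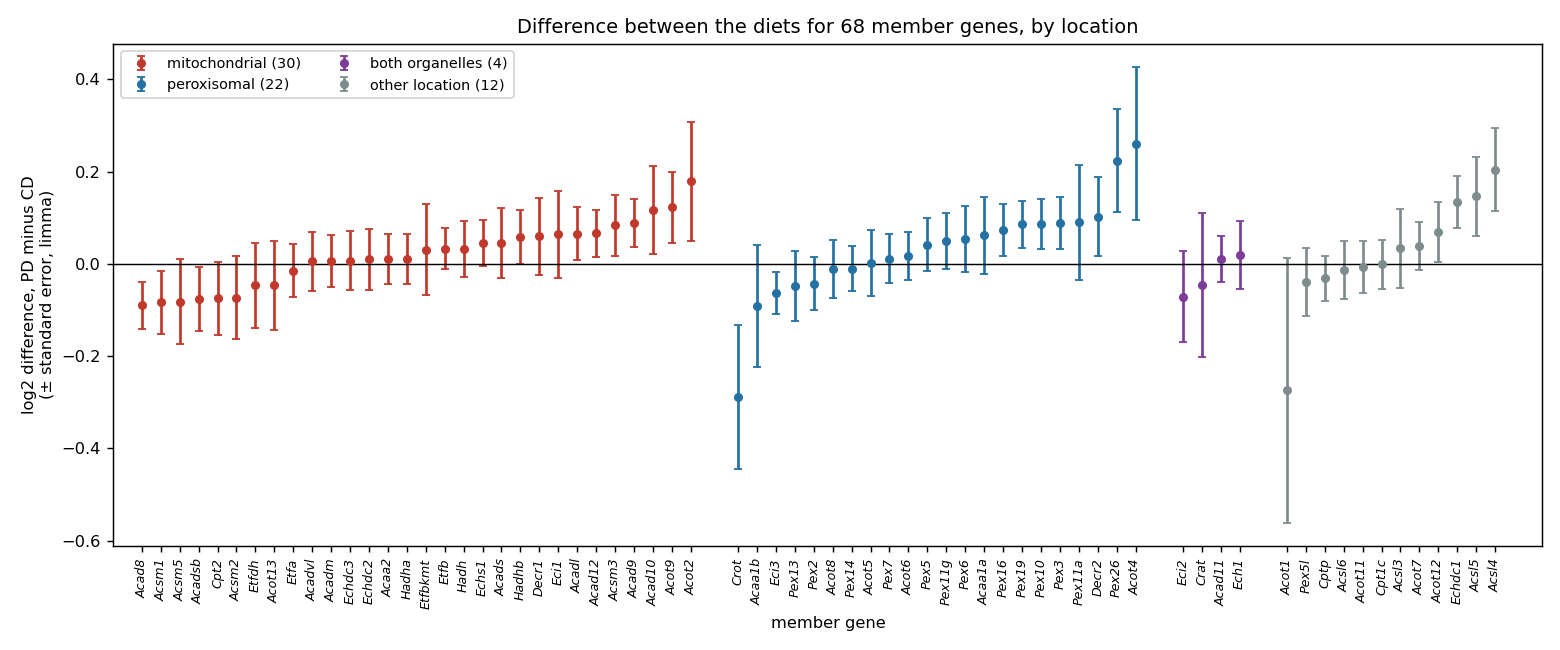
Log2 difference between PD and CD mice (vertical axis, points, with the limma standard error as bars) for each of the 68 genes, grouped by location. Most points lie within 0.1 of zero, and Crot (−0.29), Acot1 (−0.27), Pex26 (0.22) and Acot4 (0.26) lie farthest out with wide bars.

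The mean was higher in PD mice for 44 of 68 members (64.7%), against 46.5% of all genes. This count rested on single mice. It was 56 of 68 when PD replicate 2 was left out, 35 when PD replicate 4 was and 38 when CD replicate 4 was. The median difference over the members was 0.02, against −0.006 over all genes.

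The mitochondrial and the peroxisomal members did not come apart between the diets. The median difference was 0.02 over the 30 mitochondrial members, of which 21 were higher in PD mice, and 0.05 over the 22 peroxisomal members, of which 15 were higher. Without the 13 peroxins, the median of the 9 peroxisomal enzymes was 0.003, and the side with the larger median turned. It also turned when the 4 members of both organelles were counted as peroxisomal (mitochondrial minus peroxisomal 0.0026) and without PD replicate 3 (0.0074) or PD replicate 4 (0.0089). Within each mouse, the mitochondrial median minus the peroxisomal median (of deviations from each gene's mean) averaged 0.00 ± 0.04 in PD and 0.01 ± 0.03 in CD mice (SD, n = 4 each), which is no difference beyond the spread between mice.

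Within each diet, single mice stood low or high for many members. PD replicate 2 had the lowest value of the 8 mice for 28 of 68 members (41.2%), against 17.4% of all genes and 19.3% of the 9097 genes whose mean was above the median of all genes, called brighter here. PD replicate 4 had the highest value for 24 members (35.3%), against 13.5% of all genes and 11.2% of the brighter ones. CD replicate 4 was lowest for 21 members (30.9%), against 13.2% of the brighter genes. These mice were singled out after their values were seen, the members of one mouse share its RNA and array, and no test was made of these counts.

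**Figure D2:**
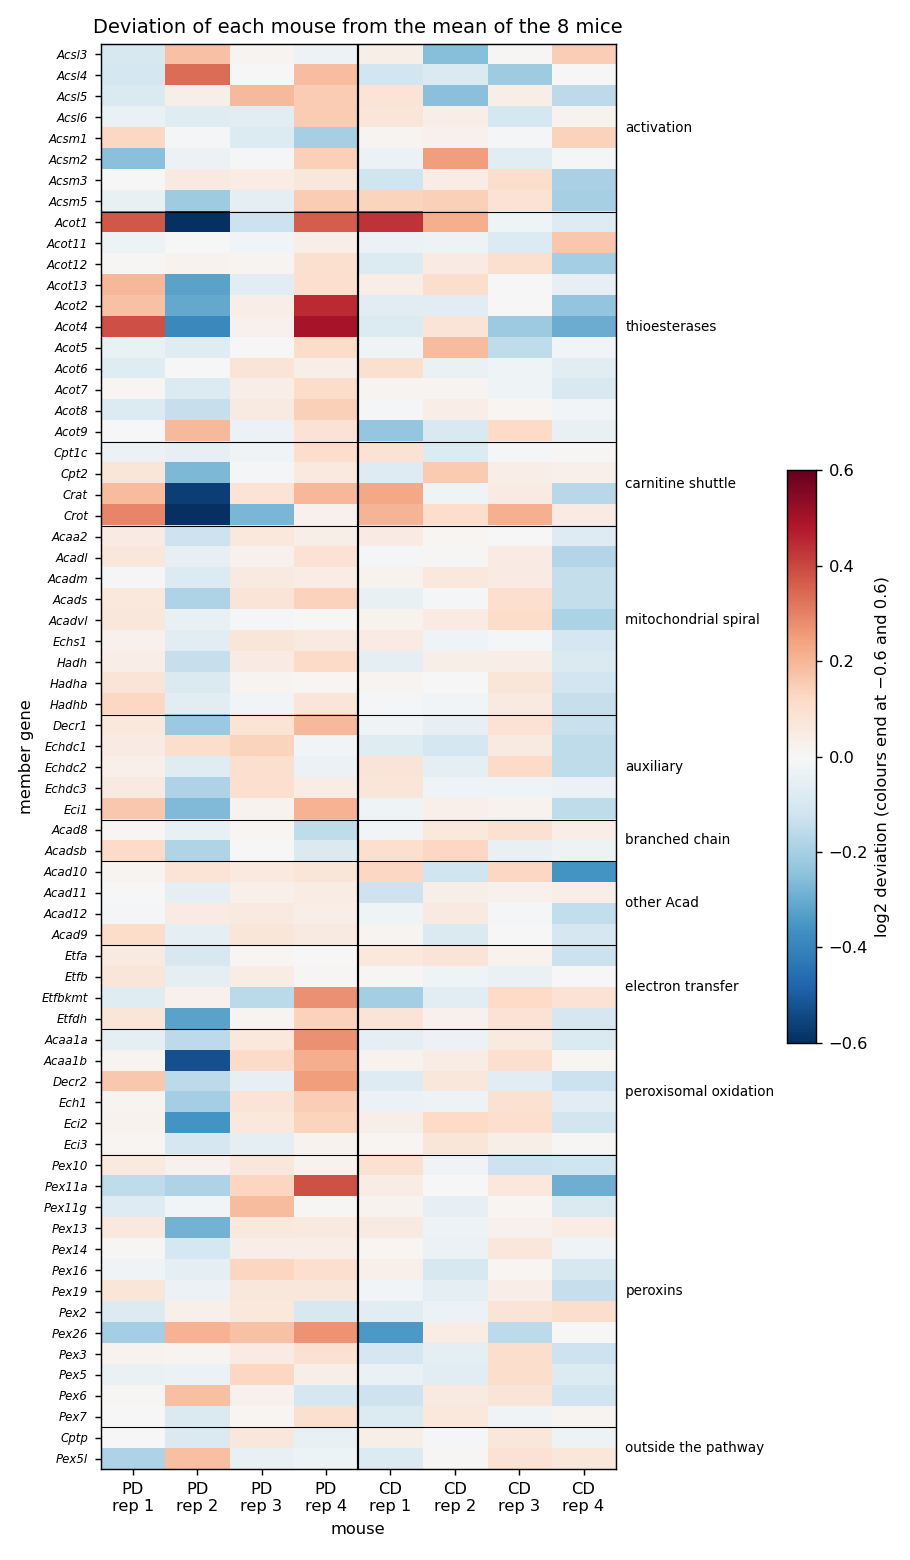
Deviation of each mouse (columns, 4 PD mice then 4 CD mice) from the mean of the 8 mice for each of the 68 genes (rows, grouped by step), in log2 units. PD replicate 2 is lowest for 28 genes, with its deepest values among the thioesterases, the carnitine shuttle and peroxisomal oxidation, and CD replicate 4 is lowest for 21.

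The lowest values of these mice fell on different members. PD replicate 2 had the lowest value for 7 of the 9 peroxisomal enzymes and for 13 of the 30 mitochondrial members. CD replicate 4 was lowest for 0 of the 9 peroxisomal enzymes, for 12 of the 30 mitochondrial members and for 6 of the 13 peroxins. The median deviation of the 9 peroxisomal enzymes was 0.01, −0.16, 0.03 and 0.14 in PD mice and −0.01, 0.07, 0.01 and −0.02 in CD mice. The same median over the 9 genes of the mitochondrial spiral was 0.06, −0.08, 0.05 and 0.05 in PD mice and 0.02, 0.01, 0.05 and −0.14 in CD mice. Among the peroxisomal enzymes PD replicates 2 and 4 were thus the lowest and the highest mouse, and within the spiral CD replicate 4 was the lowest.

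**Figure D3:**
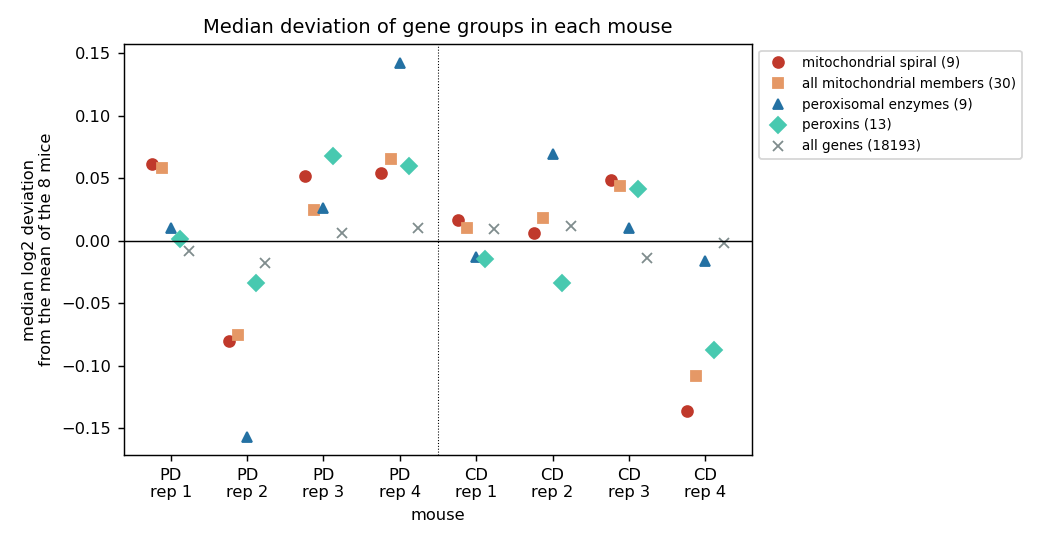
Median of the log2 deviations from each gene's mean (vertical axis) for 4 groups of members and for all genes, in each PD and CD mouse. The peroxisomal enzymes spread from −0.16 in PD replicate 2 to 0.14 in PD replicate 4, the mitochondrial spiral reaches −0.14 in CD replicate 4, and all genes stay within 0.02 of zero.

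The spread within a diet was wider in PD mice for many members. The PD standard deviation was the larger in 43 of 68 (63.2%), against 47.7% of all genes, and its median was 0.105 in PD and 0.085 in CD mice. For the 9 peroxisomal enzymes the medians were 0.19 in PD and 0.07 in CD mice. PD replicate 2 was lowest for 7 of these 9 and PD replicate 4 highest for 5. All members share the same 4 PD mice, and the difference in spread was not tested. A wider spread in CD mice was seen for Acad10, an acyl-CoA dehydrogenase family member with its own kinase-like domain. Its SD was 0.03 in PD and 0.23 in CD mice, where CD replicate 4 was lowest at 8.54. The other Acad10 probe set (mean 8.41) did not repeat this. There the SD was 0.06 in PD and 0.09 in CD mice, and CD replicate 4 was the highest mouse, at 8.49.

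**Figure D4:**
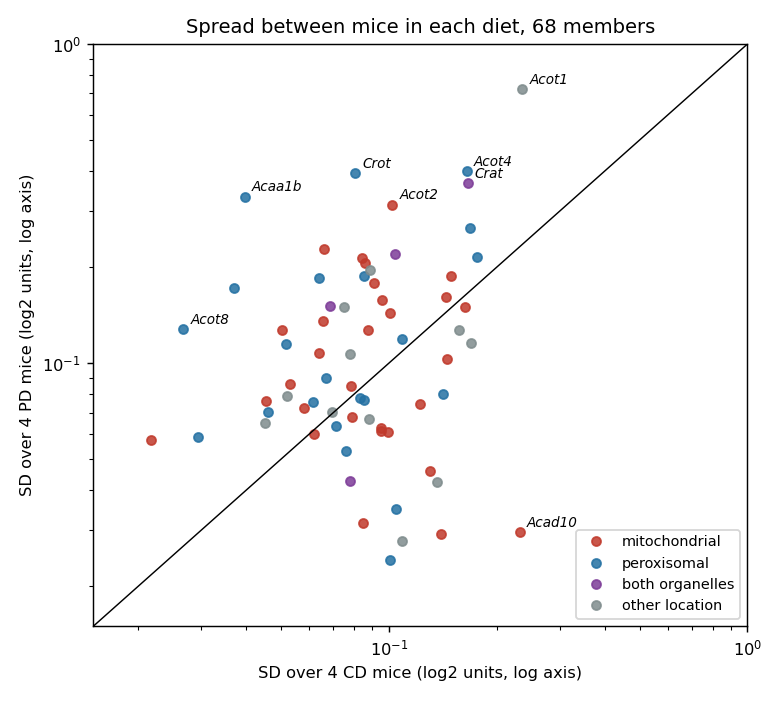
Standard deviation over the 4 PD mice (vertical, log axis) against that over the 4 CD mice (horizontal, log axis) for the 68 genes, coloured by location, with the line of equal spread. 43 genes lie above the line, and Acaa1b, at 0.33 in PD and 0.04 in CD mice, lies far above it.

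The promoters of Crot, Acot1 and Acot4 are shown because these 3 genes had the largest differences and were the ones that a call reached when 1 mouse was left out. Each run holds the 250 bases before the gene's start, 5′ to 3′ on the gene's strand (RefSeq, GRCm38.p6): Crot chr5:8997147-8997396, minus strand, Acot1 chr12:84009252-84009501, plus strand, and Acot4 chr12:84038129-84038378, plus strand. Capitals mark AGGTCA or its reverse complement TGACCT, a core site that PPARα and other nuclear receptors bind.

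Crot: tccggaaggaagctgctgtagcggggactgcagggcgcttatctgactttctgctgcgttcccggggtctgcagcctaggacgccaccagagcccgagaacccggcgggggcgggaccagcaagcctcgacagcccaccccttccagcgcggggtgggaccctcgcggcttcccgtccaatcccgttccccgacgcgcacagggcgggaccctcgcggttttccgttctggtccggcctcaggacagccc

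Acot1: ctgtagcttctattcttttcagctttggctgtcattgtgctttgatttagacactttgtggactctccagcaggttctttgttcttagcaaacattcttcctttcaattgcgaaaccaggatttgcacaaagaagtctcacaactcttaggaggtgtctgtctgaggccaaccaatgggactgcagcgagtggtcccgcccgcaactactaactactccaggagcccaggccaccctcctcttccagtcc

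Acot4: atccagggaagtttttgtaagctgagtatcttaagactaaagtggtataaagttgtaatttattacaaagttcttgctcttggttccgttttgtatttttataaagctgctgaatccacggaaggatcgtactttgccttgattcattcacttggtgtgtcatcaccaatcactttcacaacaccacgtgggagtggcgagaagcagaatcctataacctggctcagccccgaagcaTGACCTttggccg

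The core site was found once in these 3 windows, 13 bases before the start of Acot4. Searched on both strands, the core site was present in 13 of 68 windows of the members (19.1%; 59 of the 68 genes were matched, some with several starts) and in 14% of all 32851 windows of this length. The full direct repeat AGGTCANAGGTCA, which contains the core site in both its arms, was present in 0 of the 68 windows and in 0.0335% of all windows. A match is only a match of letters, and these windows are short.

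Crot, the peroxisomal carnitine octanoyltransferase that readies shortened chains for export, had the lowest difference. Its values were 12.52, 11.60, 11.95 and 12.25 in PD mice, against 12.43, 12.33, 12.44 and 12.27 in CD mice. The SD was 0.39 in PD and 0.08 in CD mice, and PD replicates 2, 3 and 4 lay below every CD mouse and PD replicate 1 above them all. The difference was −0.29 (SE 0.16, limma adjusted p = 0.998, rank product FDR 0.211, two-sided exact permutation p = 0.257). Without PD replicate 1 the rank product called it, at −0.43 and an FDR of 0.0228, and without PD replicate 2 the difference was −0.13. Another, much dimmer Crot probe set (mean 7.24) differed the other way, by 0.095.

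Carnitine acetyltransferase, Crat, which trades acetyl groups between coenzyme A and carnitine in both organelles, read 9.04, 8.28, 8.93 and 9.05 in PD mice and 9.08, 8.82, 8.90 and 8.68 in CD mice. Only PD replicate 2 was below all CD mice, and the other PD mice were within the CD range. The difference was −0.05 (SE 0.16). In the other Crat probe sets PD replicate 2 was also lowest, at 7.76 and 7.04. Cpt2, which returns the acyl chain to coenzyme A inside mitochondria, averaged 10.77 ± 0.16 in PD and 10.84 ± 0.10 in CD mice (SD, n = 4 each). Its lowest value was again in PD replicate 2, at 10.54. In another, dimmer Cpt2 probe set PD replicate 3 was lowest at 8.53 and PD replicate 2 read 9.13, with a difference of −0.22. The brain isoform Cpt1c differed by −0.0004, at a mean of 6.51, which is dim (the 25th percentile of probe sets was 6.58). Thus, of the 4 carnitine genes, Crot, Crat and Cpt2 had lower means in PD mice and the dim Cpt1c was level. None passed a test. With PD replicate 2 left out, 3 of the 4 were higher in PD mice, Crat by 0.14, Cpt2 by 0.002 and Cpt1c by 0.02, and with CD replicate 1 left out 2 were.

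**Figure D5:**
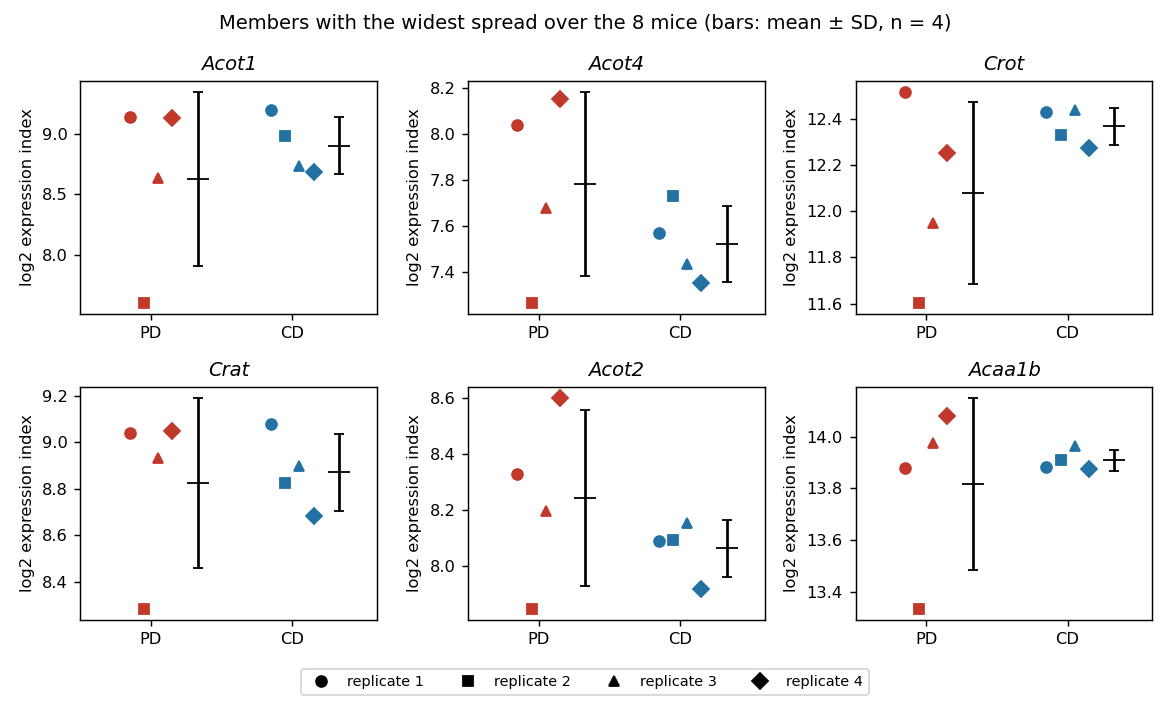
Log2 expression index (vertical axes, each with its own range) in the 4 PD and 4 CD mice for 6 members with a wide spread, a symbol for each replicate number and the mean ± SD (n = 4) beside each group. The PD replicate 2 square is the lowest point in all 6 panels, and the PD replicate 4 diamond is the highest for Acot2, Acot4 and Acaa1b.

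The thioesterases, which release free fatty acids from coenzyme A, held the widest spread. Acot1, the cytosolic form, read 9.14, 7.60, 8.64 and 9.13 in PD mice and 9.20, 8.98, 8.74 and 8.69 in CD mice. PD replicate 2 stood more than 1 log2 unit below the lowest CD mouse, PD replicate 3 was just below the CD range, and the range over all 8 mice was 3.02-fold. The difference was −0.27 (SE 0.29, exact permutation p = 0.629). The rank product called Acot1 lower without PD replicate 1 (−0.44, FDR 0.0638) or without PD replicate 4 (−0.44, FDR 0.0893), whereas without PD replicate 2 the difference was 0.07.

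Acot4, the peroxisomal succinyl-CoA thioesterase, read 8.04, 7.27, 7.68 and 8.15 in PD mice and 7.57, 7.73, 7.44 and 7.35 in CD mice. PD replicates 1 and 4 were above every CD mouse and PD replicate 2 was below every CD mouse. The difference was 0.26 (SE 0.17, exact permutation p = 0.286), the highest of the members. The rank product called Acot4 higher when PD replicate 2 (0.43, FDR 0.0839) or CD replicate 2 (0.33, FDR 0.0751) was left out.

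Mitochondrial Acot2 followed the same order of PD mice, with 8.33, 7.85, 8.19 and 8.60 in PD mice and 8.09, 8.09, 8.16 and 7.92 in CD mice. Again PD replicate 4 was highest and PD replicate 2 lowest, on both sides of the CD mice. Its difference was 0.18 (SE 0.13), and 0.02 in a dimmer Acot2 probe set (mean 6.93). Acot2, Acot1 and Acot4 stand side by side on chromosome 12 with no protein-coding gene between them, and close copies among them may share probe signal, so the split of this signal between the genes is uncertain. Acot3, which the choice of members leaves out and which neighbours Acot4, was called higher in PD mice at 0.52 (FDR 0.0092), with PD replicate 2 lowest and PD replicate 4 highest of the 8 mice.

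The other thioesterases varied less. Acot8, a peroxisomal form, averaged 9.26 ± 0.13 in PD and 9.27 ± 0.03 in CD mice, Acot9, a mitochondrial form, 7.45 ± 0.10 in PD and 7.33 ± 0.14 in CD mice (SD, n = 4 each). The remaining 6 of the 11 differed by −0.05 (Acot13) to 0.07 (Acot12). Of the 11 thioesterases, PD replicate 2 was lowest for 5 and PD replicate 4 highest for 5.

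In peroxisomal oxidation proper, PD replicate 2 was the lowest mouse for all 6 members. Acaa1b, a thiolase that closes the peroxisomal spiral, read 13.88, 13.33, 13.98 and 14.08 in PD mice and 13.88, 13.91, 13.96 and 13.88 in CD mice. The CD mice nearly coincided, PD replicate 2 was far below them and PD replicates 3 and 4 were above them. PD replicate 4 had 1.68 times the level of PD replicate 2, within the same diet. The difference between diets was −0.09 (SE 0.13), and 0.07 without PD replicate 2. The near-identical thiolase Acaa1a, whose probe set may also detect Acaa1b, read 10.26, 10.16, 10.38 and 10.59 in PD mice and 10.26, 10.28, 10.38 and 10.23 in CD mice, with the same lowest and highest mouse.

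The auxiliary enzymes of the peroxisome, which rearrange double bonds, showed the pattern at smaller size. Decr2, the peroxisomal 2,4-dienoyl-CoA reductase, differed by 0.10 (SE 0.09), Eci2, an enoyl-CoA isomerase, by −0.07 (SE 0.10), Ech1, a dienoyl-CoA isomerase, by 0.02 (SE 0.07) and Eci3, next to Eci2 on chromosome 13, by −0.06 (SE 0.05). Of these 4, PD replicate 4 was highest for Decr2, Eci2 and Ech1.

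All 9 genes of the mitochondrial spiral had higher means in PD mice, by 0.005 to 0.07 (median 0.03), and none passed a test. Even so, PD replicate 2 was below the CD mean for all 9. The count rested on single mice. When CD replicate 4 was left out, 5 of the 9 means were higher, with Acaa2, Acadm, Acadvl and Hadha lower. When PD replicate 1 was left out, 6 of the 9 were, with Acaa2, Acadvl and Hadha lower. The count also rested on the probe set used. The other probe sets of Acaa2 were lower in PD mice, by −0.04 and −0.09. So were those of Hadh, by −0.0004 and −0.06, and a dim one of Acadl (mean 6.22), by −0.09. Those of Hadhb differed by 0.09 and −0.002. Acadvl, Acadl and Acadm, the very-long-, long- and medium-chain acyl-CoA dehydrogenases of the first step, differed by 0.01, 0.07 and 0.01 (SE 0.06 each). Acadl, the one with the largest difference, read 11.71, 11.59, 11.66 and 11.72 in PD mice and 11.63, 11.64, 11.69 and 11.46 in CD mice. Here PD replicate 2 was lower than 3 of the 4 CD mice, and CD replicate 4 was lower than all others. The difference was 0.09 when PD replicate 2 was left out and 0.02 when CD replicate 4 was. CD replicate 4 was also the lowest mouse for Acadm, Acadvl, Echs1, Hadha and Hadhb, and PD replicate 2 for Acaa2, Acads and Hadh.

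The later steps were close to equal. Echs1, the short-chain enoyl-CoA hydratase, averaged 11.52 ± 0.06 in PD and 11.47 ± 0.06 in CD mice. Hadha and Hadhb, the subunits of the trifunctional protein, which lie next to each other on chromosome 5, differed by 0.01 (SE 0.05) and 0.06 (SE 0.06). Acaa2, the thiolase of the last step, averaged 12.92 ± 0.09 in PD and 12.91 ± 0.05 in CD mice (SD, n = 4 each).

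Auxiliary and electron-transfer members included several with PD replicate 2 well below the rest. Decr1, the mitochondrial 2,4-dienoyl-CoA reductase, read 11.77, 11.49, 11.79 and 11.90 in PD mice and 11.69, 11.66, 11.79 and 11.57 in CD mice. Etfdh, which hands electrons of the flavoprotein ETF to ubiquinone, read 11.81, 11.41, 11.75 and 11.87 in PD mice and 11.81, 11.76, 11.82 and 11.63 in CD mice. In both genes PD replicate 4 was the highest mouse and PD replicate 2 the lowest, and the differences were 0.06 (SE 0.08) and −0.05 (SE 0.09). Echdc1, a cytosolic ethylmalonyl-CoA decarboxylase that corrects by-products of fatty acid synthesis, read 9.74, 9.79, 9.82 and 9.67 in PD mice and 9.61, 9.58, 9.74 and 9.53 in CD mice. Its PD mice were at or near the top, with only CD replicate 3 among them. The difference was 0.14 (SE 0.06, unadjusted limma p = 0.0358, adjusted p = 0.998, exact permutation p = 0.0857, where 0.0286 is the smallest p that 4 mice against 4 can give).

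Among the remaining dehydrogenases, Acad8, which oxidizes a valine intermediate, averaged 8.82 ± 0.08 in PD and 8.91 ± 0.05 in CD mice (SD, n = 4 each). Acad9, also an assembly factor of respiratory complex I, differed by 0.09 (SE 0.05) and Acad10 by 0.12 (SE 0.10), which was 0.02 when CD replicate 4 was left out. The largest differences among mitochondrial members were those of Acot2, Acot9, Acad10, Acad8 and Acad9, all under 0.2 in size. They were smaller in other probe sets of these genes, at 0.02 for Acot2, Acad10 and Acad8 and at 0.05 and −0.01 for Acad9. For Acad8 the sign turned.

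In fatty acid activation, Acsl4, the synthetase with a preference for arachidonate, read 9.30, 9.74, 9.40 and 9.59 in PD mice and 9.29, 9.32, 9.20 and 9.41 in CD mice. PD replicates 2 and 4 were above every CD mouse, and here PD replicate 2 was the highest of all. The difference was 0.20 (SE 0.09, unadjusted limma p = 0.043, adjusted p = 0.998, exact permutation p = 0.143), and 0.13 without PD replicate 2. Its other 2 probe sets also had higher means in PD mice, by 0.15 and 0.12. Acsl5, a synthetase of mitochondrial and endoplasmic reticulum membranes, differed by 0.15 (SE 0.08), with the diets overlapping. The medium-chain synthetase Acsm3 averaged 9.46 ± 0.03 in PD and 9.38 ± 0.14 in CD mice (SD, n = 4 each). For 1 of the 8 synthetases, Acsm5, PD replicate 2 was lowest.

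Of the 13 peroxins, 10 had higher means in PD mice (median 0.05) and none passed a test. Pex26, which anchors the export complex of the import receptor in the peroxisomal membrane, read 8.63, 9.04, 9.01 and 9.10 in PD mice and 8.49, 8.88, 8.68 and 8.84 in CD mice. PD replicates 2, 3 and 4 were above every CD mouse and PD replicate 1 was below all but CD replicate 1. The difference was 0.22 (SE 0.11, exact permutation p = 0.171). Pex11a, which promotes peroxisome division and is a PPARα target, read 9.95, 9.92, 10.23 and 10.48 in PD mice and 10.15, 10.11, 10.17 and 9.81 in CD mice. The highest was PD replicate 4 and the lowest CD replicate 4, with a difference of 0.09 (SE 0.12).

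Peroxins of matrix and membrane import were close to equal. Pex5, the receptor of the main peroxisomal targeting signal, differed by 0.04 (SE 0.06), its docking partner Pex14 by −0.01 (SE 0.05) and the membrane protein chaperone Pex19 by 0.09 (SE 0.05, exact permutation p = 0.0857). For 3 of the 13 peroxins, Pex7, Pex13 and Pex14, PD replicate 2 was lowest.

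Other probe sets existed for 34 of the members, 51 in all. Of these, 37 had a difference of the same sign as the probe set used, PD replicate 2 was lowest in 19 and 0 were called by the rank product. A further 5 probe sets list a member together with another gene and were not used.

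Genes of the same pathways outside these families were set beside the members. Of 16 measured peroxisomal partners, 5 had higher and 11 lower means in PD mice, and 1, Hacl1, which cleaves 2-hydroxy acids in the α-oxidation of branched chains, was called lower at −0.37 (FDR 0.0734). In 8 of the 16 PD replicate 2 was lowest. For Amacr, a racemase of branched-chain acyl-CoA esters, every PD mouse was below every CD mouse, with a difference of −0.14 (unadjusted limma p = 0.0464, adjusted p = 0.998, exact permutation p = 0.0286), and it was not called. Another partner, the bifunctional enzyme Ehhadh, read 11.30, 10.69, 11.25 and 11.58 in PD mice and 11.31, 11.31, 11.33 and 10.95 in CD mice, with PD replicate 2 lowest and PD replicate 4 highest as for Acaa1b. Of 10 measured mitochondrial partners, 3 had higher and 7 lower means, 0 were called and PD replicate 2 was lowest for 6. Cpt1a, which makes the acylcarnitines at the outer mitochondrial membrane and was left out of the members, had a difference of 0.21 (FDR 0.421, unadjusted limma p = 0.0127, adjusted p = 0.998, exact permutation p = 0.0857) and was not called.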

How the data were processed

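Liver RNA of 4 PD and 4 CD mice was measured on Affymetrix arrays, with 1 array for each mouse. The values that the authors deposited are model-based expression indices on the log2 scale, and the submitters' processing notes name R 2.7.2. How the arrays were normalized to each other was not given in the sources consulted. Of 45101 probe sets, 64 controls were left out, and among the 45037 tested, 34945 had 1 gene symbol in the annotation used, 932 several and 9160 none. Arrays have no read depth, and the number of mice limits the precision.

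The rank product was computed for all 16 PD and CD array pairs using 1000 permutations (Python 3.11.15, numpy 2.4.6), and limma 3.58.1 was fitted in R 4.3.3. Both covered all probe sets. Thresholds were an FDR or a Benjamini-Hochberg adjusted p under 0.1. Exact permutation tests were two-sided over 70 arrangements. Both tests were checked on simulated data. Listed genes with no probe set of their own in the annotation used, Acsl1 among them, were not analysed here.

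Members, lists and locations were chosen with earlier results of these data known. Named members were those called, those without overlap between the diets, those with an unadjusted limma p under 0.05, the 5 mitochondrial and 5 peroxisomal members with the largest difference, and a set of core enzymes and peroxins; partners were those called, Cpt1a and Acot3. Other members named to complete a count, Amacr and Ehhadh among the partners, and PD replicates 2 and 4 and CD replicate 4 were singled out after their values were seen. The alternatives were other thresholds, 100 permutations, a block for the replicate number, centring on the median, quantile normalization, removal of dim probe sets, a pseudocount of 16 on the linear scale, probe sets of 1 gene only, all probe sets of a gene, limma with a trend or with array weights, the methods' t-test, other definitions of location, and leaving out each mouse, which was added for the counts by step after seeing the data.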

Additional observations from a re-analysis of the deposited data

Results flagged for a closer look

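In 4 of the 72 groups of 4 mice examined, 1 mouse stood apart from the other 3 by Dixon's criterion, which chance alone meets in about 1 in 20 groups. PD replicate 2 was lowest for Crat, at 8.28 against 8.93 to 9.05 in the other PD mice, for Acaa2, at 12.79 against 12.95 to 12.98, and for Pex19, at 8.93 against 9.03 in each of the other PD mice. CD replicate 4 was lowest for Pex11a, at 9.81 against 10.11 to 10.17 in the other CD mice. The differences between the diets without PD replicate 2 were 0.14 for Crat, 0.05 for Acaa2 and 0.11 for Pex19.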

How the results depend on the processing

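Limma called 0 members under every alternative run. With 1 mouse left out at a time, the rank product called 0 to 1 members higher in PD mice (Acot4, without PD replicate 2 or CD replicate 2) and 0 to 2 lower (Acot1 and Crot without PD replicate 1, Acot1 without PD replicate 4), and limma 0 to 0. Over the same fits the median difference ran between 0.0012 and 0.056 for mitochondrial members, between −0.0042 and 0.062 for peroxisomal members, and between −0.050 and 0.0089 for the first minus the second. That last value, −0.025 with all peroxisomal members, was 0.018 for the peroxisomal enzymes without peroxins. With the replicate number as a replicate block the rank product called 1 member higher (Acot4, FDR 0.0711). Mice with the same number did not deviate together (correlations −0.00078, −0.00031, −0.030 and −0.060, against −0.19 to 0.16 for unlike numbers). These correlations cannot show whether the numbers stand for a pairing that left no shared deviation. The block changed no other count. The methods' t-test gave 1 member (Echdc1, 1.47% of members, against 4.05% of all genes) at its threshold before adjustment and 0 after Benjamini-Hochberg adjustment. Peroxisomal location by targeting signal was not run. With 4 mice a diet the standard error of a difference reached 0.29 (Acot1).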
